A study of Rattus norvegicus with 24 samples.

Results

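Vcam1, Il6r, Irf1, C1qb and C1s are 5 rat genes of leukocyte adhesion, interleukin-6 reception, interferon-regulated transcription and the start of the classical complement pathway, and they were taken by gene symbol from the annotation of a cDNA array. Each of the 5 genes had 2 probes on the array, and 1 probe of each carried values, so 5 probes of 1766 with any value (3742 on the array) are described. Kidney total RNA was hybridised with Cy5 and Cy3 on 24 arrays. Each array compared 2 rats of one strain, a rat on low salt and a rat on high salt, as read from the titles.

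The 4 groups were SS rats at 3 days, SS rats overnight, SS-13BN/Mcw rats at 3 days and SS-13BN/Mcw rats overnight, each with 3 rat pairs and 6 arrays, since every pair was run in both dye orientations. SS is the Dahl salt-sensitive rat, an inbred strain whose blood pressure rises on a high-salt diet. SS-13BN/Mcw is a consomic strain, which has the SS background with a chromosome from the Brown Norway rat. All groups share that background, and none of the 5 genes lies on the exchanged chromosome (GRCr8 puts Vcam1 and Il6r on chromosome 2, C1s on 4, C1qb on 5 and Irf1 on 10). Age, sex and the part of the kidney were not given in the sources used here. According to the array titles, rats 1 to 3 of a strain took part in its pairs at 3 days and again overnight, so pairs with the same low rat number are likely linked.

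Values are the deposited log ratios after median centring of the arrays, and a pair's value is the mean of its dye-swapped arrays. No fold is given, since the base of the logarithm is unknown. It is also unknown which rat is the numerator, so values are called positive or negative without a direction by diet. All arrays were taken to share that direction. After removal of the mean of each dye orientation, the swapped arrays had r = 0.301 to 0.893, above 0 in 12 of 12 pairs, and before removal r = -0.113 to 0.738, above 0 in 8 of 12. An array measured 877 to 1412 probes, and precision is limited by the number of rat pairs. Tests are limma with Benjamini-Hochberg adjustment over all tested probes, with a test only for probes that had both orientations in 2 or more pairs of each group compared.

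VCAM-1 is an adhesion molecule on activated endothelium and some epithelium, to which leukocytes bind through integrins. IL-6R is the ligand-binding chain for interleukin-6, which signals through gp130 and STAT3, and in the liver drives the acute-phase response. IRF1 is a transcription factor that interferon-gamma induces, and that binds interferon-stimulated response elements. C1q recognises antibody and other ligands, and C1s is the protease of the C1 complex that cleaves C4 and C2 to start the classical pathway. C1q chains are made mainly by macrophages, whereas C1s is made by fibroblasts, hepatocytes and other cells.

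The upstream sequences of Vcam1 and Irf1 are shown because NF-kB and interferon signals are known to act on both genes. Each is the 250 bases before the gene start, read 5′ to 3′ on the gene's strand, from RefSeq (GRCr8). Capitals mark motif matches. In Vcam1 (chr2:206742784-206743033, minus strand) they are an NF-kB match, TATA box matches on both strands that overlap each other, and a match to the interferon-stimulated response element on the opposite strand. In Irf1 (chr10:38417685-38417934, plus strand) they mark an NF-kB match.
Vcam1: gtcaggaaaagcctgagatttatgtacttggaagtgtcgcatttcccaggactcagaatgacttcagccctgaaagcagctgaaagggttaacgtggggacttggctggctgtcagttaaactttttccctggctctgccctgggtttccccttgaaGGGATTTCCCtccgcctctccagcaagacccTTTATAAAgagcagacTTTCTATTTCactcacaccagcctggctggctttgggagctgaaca
Irf1: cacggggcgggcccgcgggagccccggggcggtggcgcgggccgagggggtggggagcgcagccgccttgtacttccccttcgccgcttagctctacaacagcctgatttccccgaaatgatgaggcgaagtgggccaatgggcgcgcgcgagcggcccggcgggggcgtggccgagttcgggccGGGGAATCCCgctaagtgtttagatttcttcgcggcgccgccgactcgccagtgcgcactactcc

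The NF-kB match of Vcam1 begins 93 bases before the start and that of Irf1 65 bases before it. The search ran on both strands for TATAAA as the TATA box and TTGNNNAA as the C/EBP motif. The interferon-stimulated response element was GAAA, any 2 bases and GAAA again, and NF-kB was searched by its consensus. Of 27457 windows of the same length over rat genes, 3.52% held an NF-kB match, 3.29% an interferon-stimulated response element, 13.1% a TATA box and 33.8% a C/EBP match. The window of C1qb held a C/EBP match and none of the other motifs. The window given for Il6r lies inside the annotated span of that gene and is not described. A match is a description of the letters and not a site that was measured here.

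Vcam1 lay well above 0 overnight in both strains. In SS rats at 3 days its pair values were 0.35 in pair 1 and -0.16 in pair 3, and overnight they were 0.74, 0.64 and 0.39 in pairs 1 to 3. In SS-13BN/Mcw rats at 3 days only pair 1 had both dye orientations (-0.062), and overnight the pairs stood at 0.59, 0.45 and 0.52. All 6 overnight pairs were thus higher than the 3 pairs measured at 3 days. In SS rats 4.89% of 880 probes likewise had every pair at 3 days below every overnight pair. The means of Vcam1 were 0.096 ± 0.36 (SD, n = 2) in SS at 3 days, 0.59 ± 0.18 (n = 3) in SS overnight and 0.52 ± 0.066 (n = 3) in SS-13BN/Mcw overnight. Both overnight means passed the test (adjusted p = 0.0316 in SS and 0.0191 in SS-13BN/Mcw, limma). The SS overnight call was lost without any 1 of its own pairs (adjusted p = 0.0599 to 0.295), and also without SS-13BN/Mcw overnight pair 1 or 2 (0.0536 and 0.0537), which share the estimate of the spread. The SS-13BN/Mcw overnight call was lost without any 1 of its pairs (0.0621 to 0.0922) or with only that group in the fit (0.0558).

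The arrays with the low-numbered rat in Cy5 measured Vcam1 in all 12 pairs, and they show the same order by time with less height. They read 0.015, 0.074 and -0.40 in SS at 3 days, and 0.30, 0.33 and 0.21 in SS overnight. SS-13BN/Mcw arrays read -0.41, 0.0083 and 0.17 at 3 days, and 0.31, 0.13 and 0.48 overnight. The ranges at 3 days and overnight do not overlap in SS rats and overlap in SS-13BN/Mcw rats, where pair 3 at 3 days lies above pair 2 overnight. With the low-numbered rat in Cy3 the value was higher in 9 of 9 pairs, and the 2 orientations lay on average 0.28 to either side of their mean. A fit over all 24 arrays with the dye as a covariate put SS-13BN/Mcw at 3 days at 0.18 ± 0.12 (SE, 4 arrays, adjusted p = 0.521), where the pair means allowed no test. That fit used 1 correlation between swapped arrays (0.41) for every probe. Its p-values are too small for probes whose swapped arrays are more alike than that.

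Il6r, the cytokine receptor, had small values that were nearly all positive. Its pairs stood at 0.38, 0.13 and 0.062 in SS at 3 days and at 0.29, 0.32 and 0.087 in SS overnight. SS-13BN/Mcw pairs stood at 0.14, -0.061 and 0.29 at 3 days and at 0.22, 0.38 and 0.42 overnight. Pair 2 of SS-13BN/Mcw at 3 days was the single negative pair, and 11 of 12 pairs were positive, and 7.99% of the 701 probes measured in all pairs had 11 or 12 positive. The mean was 0.19 ± 0.17 in SS at 3 days, 0.23 ± 0.13 in SS overnight, 0.12 ± 0.18 in SS-13BN/Mcw at 3 days and 0.34 ± 0.11 in SS-13BN/Mcw overnight (SD, n = 3 each). Only SS-13BN/Mcw overnight passed (adjusted p = 0.0301), while SS overnight had an adjusted p of 0.208 and both 3-day groups 0.402 (SS) and 0.509 (SS-13BN/Mcw). The call in SS-13BN/Mcw overnight was lost without pair 2 or 3 of that group (0.106 and 0.147) and with only that group in the fit (0.0919).

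Irf1, the interferon-regulated transcription factor, spread widely between the pairs of a group. Its values were 0.43, 0.18 and -0.28 in SS at 3 days and 0.63, 0.20 and 0.093 in SS overnight. SS-13BN/Mcw pairs were at -0.25, -0.12 and 0.23 at 3 days and 0.33, 0.29 and 0.59 overnight. All 6 overnight pairs were positive and 3 of the 6 pairs at 3 days were negative. Every measured pair was positive in 22.0% of 1139 probes in SS overnight and in 30.4% of 1100 in SS-13BN/Mcw overnight. The mean was 0.11 ± 0.36 in SS at 3 days, 0.31 ± 0.28 in SS overnight, -0.046 ± 0.25 in SS-13BN/Mcw at 3 days and 0.40 ± 0.16 in SS-13BN/Mcw overnight (SD, n = 3 each). None passed the test, and the nearest was SS-13BN/Mcw overnight (adjusted p = 0.0845), which passed in the fit over all arrays (0.0438). Without SS pair 1 the SS mean at 3 days was -0.048.

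C1qb, a chain of the recognition molecule of complement, was the least well measured member, with both orientations in 7 of 12 pairs. In SS at 3 days its pairs 1 and 3 stood at 0.21 and 0.35, and in SS overnight pairs 1 to 3 stood at 0.35, -0.14 and 0.80. In SS-13BN/Mcw rats only pair 1 had both orientations, at -0.087 at 3 days and -0.19 overnight. The SS pairs were thus positive in 4 of 5 cases and the 2 SS-13BN/Mcw pairs were negative, but single arrays of SS-13BN/Mcw overnight pairs 2 and 3 read 0.42 and 0.68 with 1 orientation each. The means of 0.28 ± 0.10 (SD, n = 2) in SS at 3 days and 0.33 ± 0.47 (n = 3) in SS overnight did not pass (adjusted p = 0.640 and 0.366). Its dye difference was the least constant among the members, with the Cy3 orientation at -0.41 to 0.12 from the pair mean (SD 0.21, against 0.080 to 0.14 in the other members) and the Cy5 orientation higher in 5 of 7 pairs. No strain difference can be tested for C1qb from the pair means.

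C1s, the complement protease, had the highest values of the set and the widest spread. Its pairs stood at 1.96, 0.52 and -0.16 in SS at 3 days and at 1.38, 0.48 and 0.15 in SS overnight. Those of SS-13BN/Mcw stood at -0.11, -0.24 and 0.24 at 3 days and at 0.48, 0.61 and 1.83 overnight. There were 3 pairs above 1, namely pair 1 of both SS groups, which share SS rat 1, and pair 3 of SS-13BN/Mcw overnight. The other 9 pairs reached at most 0.61 and averaged 0.22 ± 0.33 (SD), with 6 of 9 positive. The mean was 0.77 ± 1.08 in SS at 3 days (adjusted p = 0.402), 0.67 ± 0.64 in SS overnight (0.367), -0.037 ± 0.25 in SS-13BN/Mcw at 3 days (0.965) and 0.97 ± 0.75 in SS-13BN/Mcw overnight (0.0958; SD, n = 3 each), and none passed in limma. The mean of SS-13BN/Mcw overnight was the highest of 1100 probes tested there. It passed with quantile normalization (0.0336), but stood at 0.54 without pair 3. It also passed in the fit over all arrays (0.0142), which takes swapped arrays as less alike than those of C1s were. For C1s the SD was 0.090 between swapped arrays and 0.741 between pairs, so that p is too small. With ratios turned by dye, where a value is the distance of the Cy3 orientation from the pair mean, this group stood at 0.19 (adjusted p = 0.0242). The SS mean at 3 days was 0.18 without pair 1 and 1.24 without pair 3, and the SS overnight mean was 0.32 without pair 1.

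**Figure D1:**
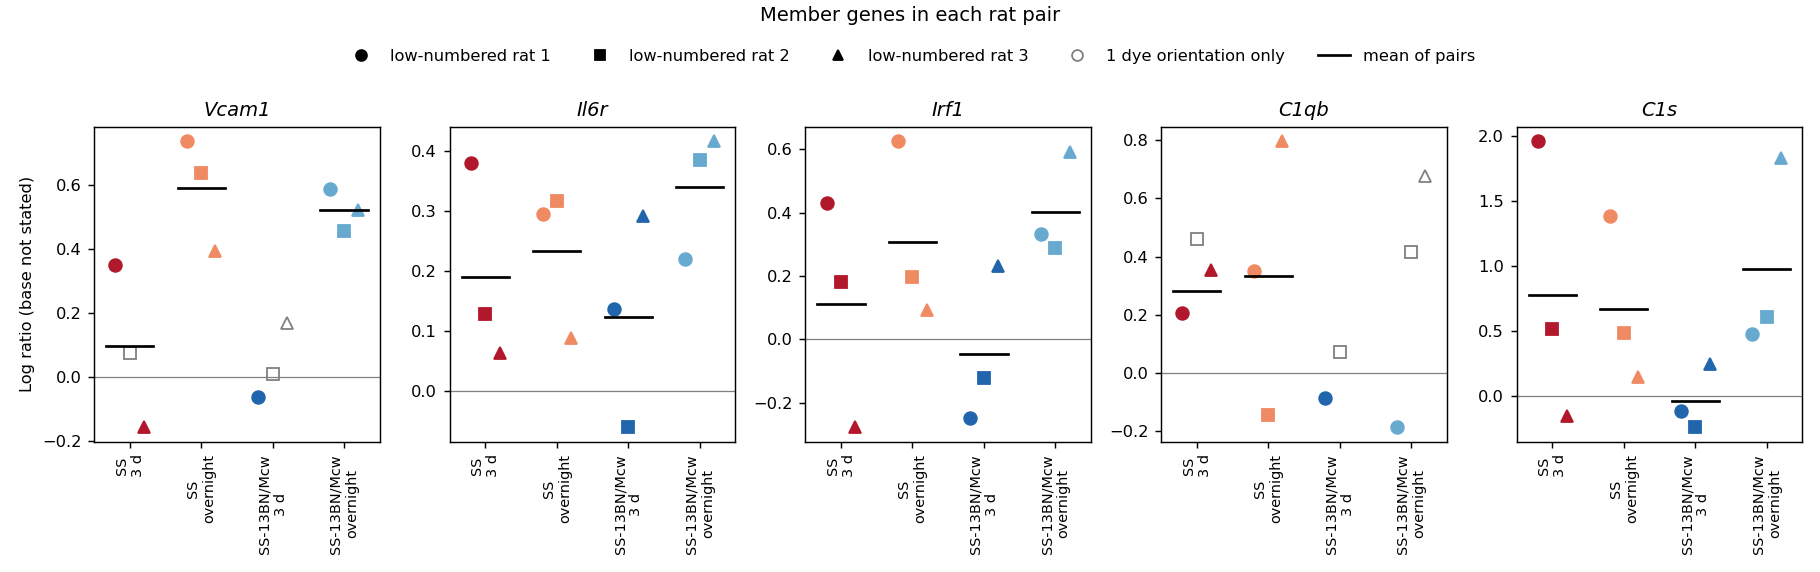
Log ratio (vertical axis, base not stated) of the 5 genes in each rat pair of the 4 groups, with a panel and a scale for each gene. Filled symbols are means of both dye orientations, open symbols pairs with 1 orientation, and bars group means. Vcam1 lies between 0.39 and 0.74 in all overnight pairs, and C1s has 3 pairs between 1.38 and 1.96.

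The spread of C1s was between rat pairs and not between dye-swapped arrays. The SD between pairs within groups was 0.741, the second highest of 701 probes measured in all pairs (median 0.153), while the distance of its arrays to the pair mean had an SD of 0.090. The 3 high pairs were high on both arrays, from 1.34 to 2.25. Irf1 had an SD between pairs of 0.273 (rank 79 of 701) and Il6r one of 0.147 (rank 378). C1s and Il6r read higher with the low-numbered rat in Cy3 in 12 of 12 pairs each and Irf1 in 10 of 12, with the orientations on average 0.16, 0.12 and 0.065 to either side of the pair mean on the log ratio scale. This dye difference cancels in the pair mean.

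**Figure D2:**
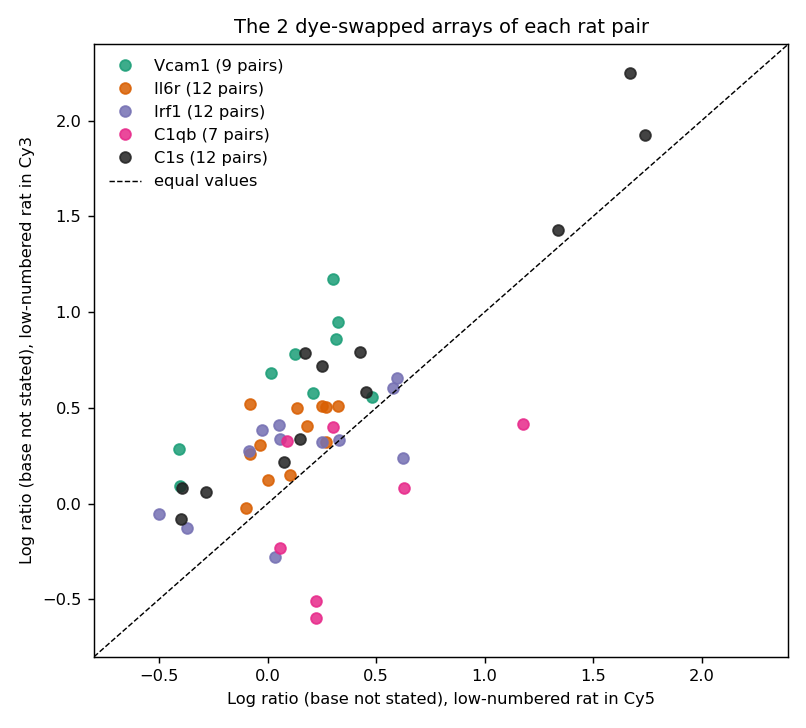
Log ratio with the low-numbered rat in Cy3 (vertical axis) against that with it in Cy5 (horizontal axis), a point for each gene and rat pair with both orientations. The dashed line marks equal values. The 3 high C1s pairs lie at 1.34 and above on both axes, all 9 Vcam1 points lie above the line, and 5 of 7 C1qb points below it.

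**Figure D3:**
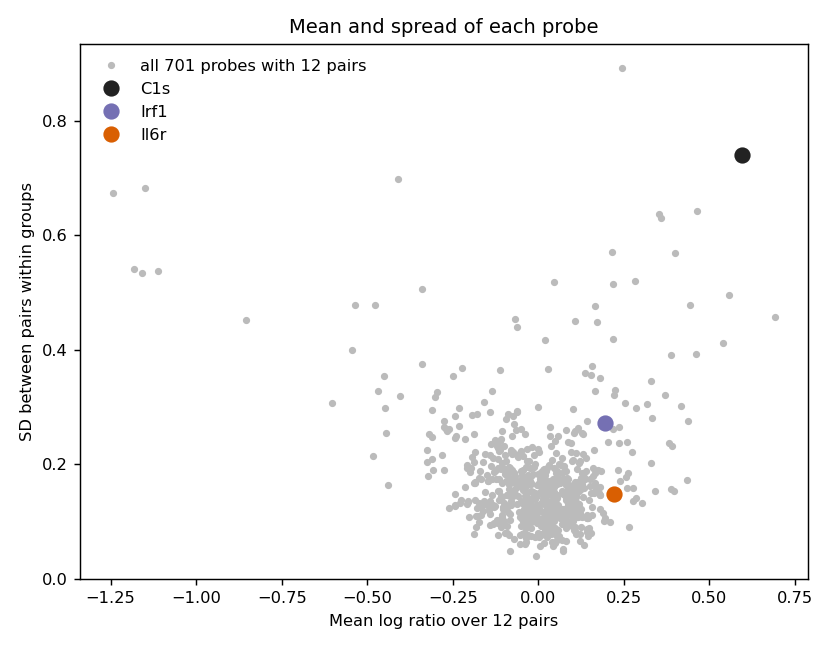
SD between pairs within groups (vertical axis) against mean log ratio over 12 pairs (horizontal axis) for the 701 probes measured in all pairs. C1s, at 0.60 and 0.741, lies at the upper right, Irf1 at 0.19 and 0.273, and Il6r at 0.22 and 0.147 near the median spread of 0.153.

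Counted by group, all tested members had means above 0 except in SS-13BN/Mcw at 3 days, where 1 of 3 did, and few passed. Of all probes tested 48.7% (SS at 3 days) to 51.6% (SS overnight) had means above 0. In SS rats at 3 days 0 of 5 passed, where 0.340% of 883 probes did, and at an unadjusted p under 0.05 there were 2 members and 108 probes. In SS rats overnight 1 of 5 passed (Vcam1), where 1.14% of 1139 probes did, and 3 members and 174 probes had an unadjusted p under 0.05. In SS-13BN/Mcw rats at 3 days 0 of 3 tested members passed, where 2.98% of 907 probes did, and none reached an unadjusted p under 0.05, as 151 probes did. In SS-13BN/Mcw rats overnight 2 of 4 passed (Vcam1 and Il6r), where 10.5% of 1100 probes did, and 4 members and 336 probes had an unadjusted p under 0.05. The members' median was 0.19 in SS at 3 days, 0.33 in SS overnight, -0.037 in SS-13BN/Mcw at 3 days and 0.46 in SS-13BN/Mcw overnight. Over all probes tested the median lay between -0.0054 (SS at 3 days) and 0.0071 (SS overnight).

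The strain comparison asks whether the response of SS rats differed from that of SS-13BN/Mcw rats at the same time. No member passed at 3 days (3 tested) or overnight (4 tested), and neither did any probe (limma, 0.00% of 824 and of 1053), though 69 and 61 probes, none of them a member, had an unadjusted p under 0.05. At 3 days the largest difference was that of C1s, 0.81 (95% interval -0.27 to 1.89, adjusted p = 0.610), with pair values of -0.16 to 1.96 in SS and -0.24 to 0.24 in SS-13BN/Mcw. It was 0.22 without SS pair 1 and 1.28 without SS pair 3. Irf1 differed by 0.16 (-0.28 to 0.58) and Il6r by 0.068 (-0.20 to 0.33). Overnight the differences were 0.068 (-0.27 to 0.40) for Vcam1, -0.11 (-0.38 to 0.16) for Il6r, -0.097 (-0.52 to 0.33) for Irf1 and -0.30 (-1.38 to 0.77) for C1s. Pair values of the strains overlapped in each of these comparisons. The intervals of Il6r, Irf1 and C1s overnight reach beyond the size of their SS overnight means. A running number in the array titles, whose meaning is not given, was 36 to 41 in SS at 3 days, 18 to 23 in SS overnight, 28 to 35 in SS-13BN/Mcw at 3 days and 24 to 43 in SS-13BN/Mcw overnight. Its order cannot be told apart from time in SS rats, nor from strain at 3 days or overnight.

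The time comparison asks whether the response at 3 days differed from that overnight. In SS rats Vcam1 was lower at 3 days by 0.49 ± 0.17 (SE, unadjusted p = 0.0156, adjusted p = 0.988), and its pair values did not overlap (-0.16 and 0.35 at 3 days, 0.39 to 0.74 overnight), as in 4.89% of 880 probes on the lower side. The other 4 members overlapped between the times in SS rats, with differences of -0.19 for Irf1, -0.054 for C1qb, -0.043 for Il6r and 0.10 for C1s, and the last turned to -0.045 with arrays scaled to one spread. In SS-13BN/Mcw rats Irf1 and C1s did not overlap, and both were lower at 3 days, as in 11.7% of 897 probes. Irf1 differed by -0.45 ± 0.20 (SE, unadjusted p = 0.0406, adjusted p = 0.424) and C1s by -1.01 ± 0.50 (SE, adjusted p = 0.456), or -0.58 without overnight pair 3. Il6r differed by -0.22 ± 0.12 (SE, adjusted p = 0.510) with overlapping pairs. By low rat number, all 9 differences of Il6r, Irf1 and C1s between times in SS-13BN/Mcw rats were negative, as in 23.9% of 745 probes with 3 differences, and the widest was C1s of rat 3 at -1.59. In SS rats Irf1 was negative in 3 of 3 (-0.19, -0.018 and -0.37), as in 15.2% of 761 probes. Both measured differences were negative for Vcam1 (-0.39 and -0.55) and for C1qb (-0.14 and -0.44). The share of probes with 2 of 2 negative was not counted, but only 40.9% of 880 probes had a difference above 0 in SS rats. No probe passed in either strain (0.00% in both, with 17 and 101 probes at an unadjusted p under 0.05).

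The strain by time term, which asks whether the time difference differed between strains, was 1.11 ± 0.70 for C1s, 0.25 ± 0.28 for Irf1 and 0.18 ± 0.17 for Il6r (SE, adjusted p = 0.972 each). In C1s it was the highest value of 822 probes, at 0.52 without SS pair 1 at 3 days and 0.68 without SS-13BN/Mcw overnight pair 3, and no probe passed (0.00%, with 20 at an unadjusted p under 0.05, none of them a member). Vcam1 and C1qb were not tested here, because SS-13BN/Mcw at 3 days had 1 pair with both orientations.

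The mean of the 4 groups asks whether the average of the group means differs from 0, and not whether each group shared it. Il6r averaged 0.22 ± 0.043 (SE, adjusted p = 0.00320) and C1s 0.60 ± 0.18 (adjusted p = 0.0249), so 2 of 3 tested members passed, where 28.5% of 822 probes did. C1s passed although its mean in SS-13BN/Mcw at 3 days was -0.037 and it passed in no single group. Irf1 averaged 0.19 ± 0.069 (adjusted p = 0.0538) and passed with values as deposited (0.0458), arrays scaled to one spread (0.0466), all 3 pairs required (0.0490) and in the fit over all arrays (0.0256). The Il6r call held in each setting tried (adjusted p = 0.000231 to 0.0100), whereas that of C1s was lost without SS overnight pair 1 (0.0645), SS-13BN/Mcw pair 3 at 3 days (0.0611) or SS-13BN/Mcw pair 3 overnight (0.0543). In the fit over all arrays, which could test Vcam1, it averaged 0.36 ± 0.057 (SE, adjusted p = 4.91e-05).

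**Figure D4:**
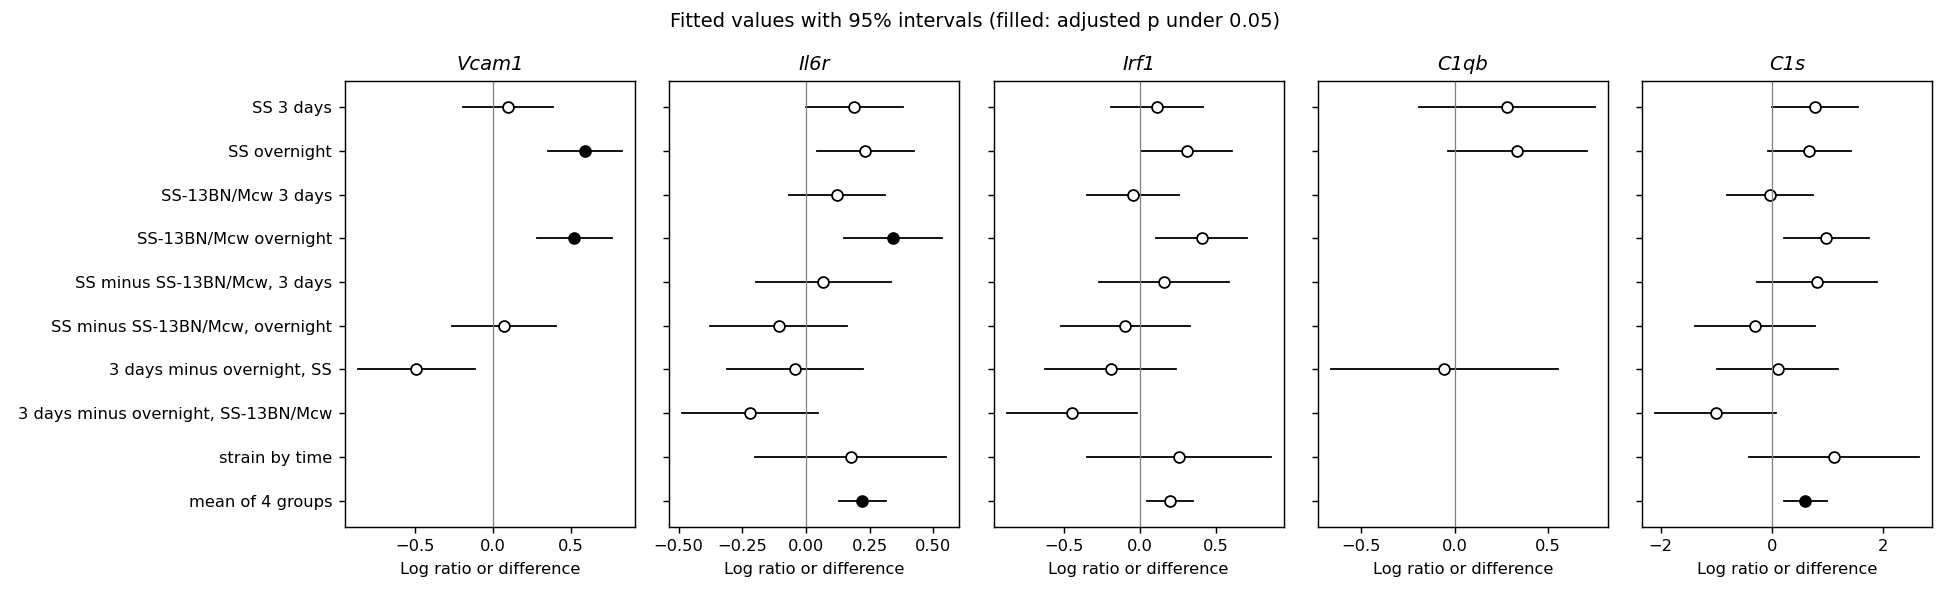
Fitted log ratio or difference of log ratios (horizontal axis, with 95% intervals) of each gene in each group and comparison (rows). Filled points have an adjusted p under 0.05. These are Vcam1 in both overnight groups, Il6r in SS-13BN/Mcw overnight, and Il6r and C1s in the mean of 4 groups, and no difference between strains or times is filled.

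For Vcam1 the means of SS overnight (0.59) and SS-13BN/Mcw overnight (0.52) came first, and their pairs overlapped and lay above the pairs at 3 days. SS (0.096, 2 pairs) and SS-13BN/Mcw (-0.062, 1 pair) at 3 days have no settled order, since the fit over all arrays gave 0.16 for SS and 0.18 for SS-13BN/Mcw at that time. For Il6r, Irf1 and C1s the order was SS-13BN/Mcw overnight first and SS-13BN/Mcw at 3 days last. Between these ends Il6r and Irf1 had SS overnight above SS at 3 days, and C1s had SS at 3 days (0.77) above SS overnight (0.67), a gap far under the spread of its pairs. Neighbouring groups in these orders overlapped in their pair values for each of these 3 genes.

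Il6r, Irf1 and C1s varied together over the 12 pairs, which share rats within a strain, so the correlations are descriptions. Irf1 and C1s had r = 0.868 (rho 0.867), and r = 0.905 over the 9 pairs without the 3 high C1s pairs. Il6r had r = 0.782 with C1s and 0.781 with Irf1, and 0.788 and 0.702 over the same 9 pairs. Vcam1 and Irf1 had r = 0.862 over 9 pairs, but 0.385 without the 2 pairs farthest from the median of Vcam1. C1qb had r = 0.0038 with Irf1, 0.018 with C1s, -0.090 with Vcam1 and -0.39 with Il6r over 7 pairs (rho -0.25, -0.25, -0.29 and -0.5).

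The genes most like each member were named by the highest r among 707 probes with a single gene symbol that shared at least 10 pairs. For C1s these were Lgals1, which codes for a galectin (r = 0.98), Ctss, a lysosomal protease of antigen-presenting cells (0.972, 10 pairs), and Dcn, a small collagen-binding proteoglycan (0.968). Without the 3 high pairs they stood at 0.887, 0.935 (7 pairs) and 0.916. For Irf1 they were Myl12b, a myosin light chain (0.953), Atp5f1d, a subunit of mitochondrial ATP synthase (0.923, 10 pairs), and Fabp4, a fatty acid carrier of adipocytes and macrophages (0.918). For Il6r they were Tmsb4x and Tmsb10, the actin-binding thymosins (0.952 and 0.946), and Lipc, a lipase (0.917, 10 pairs). The thymosin Tmsb4x stood at 0.43, 0.059 and -0.0058 in SS at 3 days and at 0.23, 0.40 and 0.56 in SS-13BN/Mcw overnight, close to Il6r in size as well. Vcam1 (9 pairs) and C1qb (7 pairs) had too few pairs for this search.

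Over the 5 pathway lists, 5 of 20 other tested genes passed in the mean of 4 groups, near the 28.5% of all probes. Of the endothelial and leukocyte adhesion list 7 genes beside Vcam1 were measured and 6 tested, and none passed in a single group. In the mean of 4 groups 1 of 6 passed, Spp1, which codes for osteopontin, at 0.12 ± 0.033 (SE, adjusted p = 0.0154), and the list's median was -0.0015 beside 0.0078 for all probes. The integrin chain Itgb1 averaged 0.052 ± 0.051, the hyaluronan receptor Cd44 -0.14 ± 0.073 and the integrin-associated Cd47 -0.058 ± 0.053 (SE), and none of them passed. The overnight medians of the 6 tested genes were -0.010 in SS and -0.035 in SS-13BN/Mcw, beside Vcam1 at 0.59 and 0.52.

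Of the interleukin-6 family and JAK-STAT list 11 genes beside Il6r were measured and 4 to 6 tested in a group. Serpina3n, a secreted protease inhibitor of the acute phase, passed in SS at 3 days (0.88 ± 0.13, SD, n = 2, adjusted p = 0.0320), in SS overnight (0.65 ± 0.22, n = 3, adjusted p = 0.0249) and in SS-13BN/Mcw overnight (0.74 ± 0.31, n = 3, adjusted p = 0.00627). It was at 0.24 ± 0.15 (n = 3, adjusted p = 0.318) in SS-13BN/Mcw at 3 days, where Il6r and C1s were also at their lowest. The fibrinogen chain Fga averaged 0.077 ± 0.090 and the cytokine Cntf -0.034 ± 0.034 over the 4 groups (SE), and neither passed. The median of the tested genes in the mean of 4 groups was 0.049 (4 genes).

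Of the interferon list 7 genes beside Irf1 were measured, and 1 of 4 tested passed in the mean of 4 groups. This was B2m, the light chain of class I major histocompatibility molecules, at 0.22 ± 0.067 (SE, adjusted p = 0.0283). The class II gene RT1-Db1 averaged 0.15 ± 0.087 and the class I gene RT1-A1 -0.41 ± 0.17 (SE), and neither passed. The medians of the tested genes were 0.24 (6 genes) in SS at 3 days, 0.18 (7) in SS overnight, -0.053 (5) in SS-13BN/Mcw at 3 days and 0.26 (7) in SS-13BN/Mcw overnight, and no gene of the list passed in a single group. These medians have the same signs as the group means of Irf1.

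Of the complement and coagulation control list 7 genes beside C1qb and C1s were measured and 2 or 3 tested. Clu, which codes for clusterin, a chaperone that also inhibits the terminal complement complex, passed in SS-13BN/Mcw overnight (0.56 ± 0.14, SD, n = 3, adjusted p = 0.0100) and in the mean of 4 groups (0.33 ± 0.054, SE, adjusted p = 0.00124). It stood at 0.34 ± 0.15 in SS at 3 days and 0.44 ± 0.33 in SS overnight, and at -0.029 ± 0.12 in SS-13BN/Mcw at 3 days (SD, n = 3 each). C9, a component of the terminal complex, passed in the mean of 4 groups (0.18 ± 0.051, SE, adjusted p = 0.0238), and its highest group was SS-13BN/Mcw at 3 days (0.34 ± 0.081, SD, n = 3, adjusted p = 0.115), the group in which C1s was lowest. Of 12 measured genes of NF-kB, TNF and chemokine inflammation 4 to 6 were tested in a group and none passed. Among them Nfkb1, a subunit of NF-kB, averaged 0.052 ± 0.042, Anxa1 0.016 ± 0.036, S100a8 -0.095 ± 0.046 and Mif -0.069 ± 0.047 over the 4 groups (SE).

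The mean of the fibroblast and mesangial markers was highest in the pairs where C1s was highest. So was the mean of the few macrophage and leukocyte markers with values, but not their median in SS pair 1 at 3 days. In bulk RNA, fewer cells of a type and less RNA per cell cannot be told apart. Of 15 fibroblast and mesangial markers 13 were measured, and their mean was 0.72, 0.28 and 0.14 in SS at 3 days and 0.68, 0.16 and 0.27 in SS overnight. It was 0.0090, -0.067 and -0.022 in SS-13BN/Mcw at 3 days and 0.18, 0.26 and 0.84 in SS-13BN/Mcw overnight. The 3 pairs with C1s above 1 had the 3 highest marker means. Of the tested fibroblast and mesangial markers 5 of 10 passed on the positive side in the mean of 4 groups, where 13.4% of all probes did, with a median of 0.24, and Dcn is 1 of this list.

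The mean of the proximal tubule markers lay on the negative side in all 12 pairs, from -1.44 in SS-13BN/Mcw overnight pair 3 to -0.17 in SS pair 3 at 3 days (16 of 24 listed genes measured). In each pair 1 to 3 of them were above 0. Of 12 tested in the mean of 4 groups 10 passed on the negative side, where 15.1% of all probes did, and 1 on the positive side. The pairs with C1s above 1 had means of -0.88, -0.37 and -1.44, and the SS overnight pair was among the less negative of the 12. Of 32 macrophage and leukocyte markers 5 were measured and at most 3 in a pair, with means of -0.062 to 0.76, and Ctss is 1 of these. In the pairs with C1s above 1 their means were 0.47 (SS at 3 days), 0.62 (SS overnight) and 0.76 (SS-13BN/Mcw overnight), also the 3 highest, though the next pair stood at 0.47 as well. The median in SS pair 1 at 3 days was 0.12 over 3 genes, with Ctss at 1.38, and other pairs had higher medians. Of 18 endothelial markers only Kdr was measured, at -0.28 to 0.41, so endothelial cells, which can carry VCAM-1, are hardly covered. A ratio gives no level, so the label of the tissue could be checked only in that kidney genes had values. The part of cell type makeup in the member values was not tested.

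**Figure D5:**
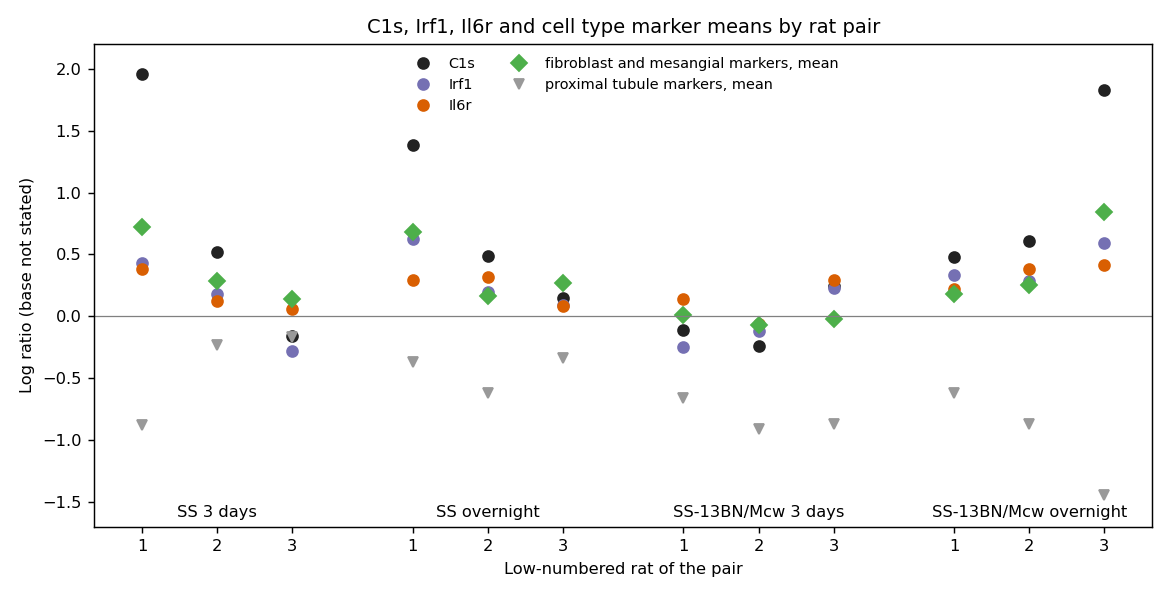
Log ratio (vertical axis) of C1s, Irf1, Il6r and the means of the fibroblast and mesangial and the proximal tubule markers, in the pair of each low-numbered rat (horizontal axis) within the 4 groups. The fibroblast and mesangial mean is highest, at 0.68 to 0.84, in the 3 pairs where C1s is at 1.38 to 1.96, and the proximal tubule mean is below 0 in each pair.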

How the data were processed

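Kidney total RNA of 12 rat pairs was measured on 24 cDNA arrays, 6 for each of 4 groups by strain and time. The values the authors deposited are log ratios, with a value for each probe on each array. How they were made, the base of the logarithm and the rat in the numerator are not stated in the labels or the file header. Each array of the deposited values was already centred on its mean (largest absolute mean 0.000822) but not on its median (largest absolute median 0.0668). Of 1766 measured probes 1426 had a single gene symbol in the array annotation (1421 matched to RefSeq through their gene ID), 29 had several and 311 none.

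Arrays were centred on the median, not turned by dye, and averaged over both orientations of a pair. The model was limma 3.58.1 in R 4.3.3 with a coefficient for each group over 12 pairs, eBayes, two-sided tests and Benjamini-Hochberg adjustment at 0.05. The fit was tested on simulated data. With 3 pairs per group, p-values rest on how much rat pairs differ. The titles repeat rats 1 to 3 at both times. Each deviation was taken from the mean of its group. This pulls values for different rats below 0 where those for the same rat lie above it, so the contrast is partly set by the centring. Deviations of pairs with the same rat correlated between times at 0.521, 0.0592 and 0.646 in SS and at 0.394, 0.285 and 0.213 in SS-13BN/Mcw, against -0.723 to 0.272 for different rats. A fit with that rat as a random block was run beside each comparison, and other alternatives were array scaling, the dye orientation, missing values, the samples in the fit, all arrays with the dye as a covariate, and leaving out each pair.

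The 5 genes, the lists and the tests were chosen with earlier results of these data known. Named beside the members were, for each list, up to 2 genes on each side of 0 with the smallest p in the mean of 4 groups, up to 5 past the threshold in a group, and for each member the 3 genes with the highest Pearson r. No protein sequences were used here. Promoters came from RefSeq (GRCr8), and 1 planned motif is not reported here. Figures used matplotlib 3.10.9.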

Additional observations from a re-analysis of the deposited data

How the results depend on the processing

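Beside leave-outs, the count of members past the threshold moved in 3 comparisons. In SS-13BN/Mcw overnight (2) it was 4 in the array-level fit (Irf1 and C1s gained), 3 with quantile normalization and 3 with ratios turned by dye (C1s gained in both), and 0 with only that group in the fit. In the mean of 4 groups (2) it was 4 in the array-level fit (Vcam1 and Irf1 gained), 3 with values as deposited, arrays scaled or all 3 pairs required (Irf1 gained), and 3 with no filter on missing pairs (Vcam1 gained). Turning ratios by dye, which assumes Cy5 over Cy3 throughout, gave 2 members in SS at 3 days (main 0, Vcam1 and C1s). A turned value is the distance of the Cy3 orientation from the pair mean, so it is another quantity and not the pair mean at a smaller size. The members that had passed also passed by it. Vcam1 was at 0.31 (SS overnight) and 0.21 (SS-13BN/Mcw overnight), Il6r at 0.17 in SS-13BN/Mcw overnight and 0.12 in the mean of 4 groups, and C1s at 0.16 in that mean. So did 325 of 1139 probes in SS overnight, 309 of 1100 in SS-13BN/Mcw overnight and 568 of 822 in the mean of 4 groups. Turned values had the other sign for C1qb in SS at 3 days (-0.077) and overnight (-0.23), and for Irf1 (0.048) and C1s (0.14) in SS-13BN/Mcw at 3 days. The sign also differed for Il6r (-0.037) and Irf1 (0.10) between strains at 3 days and overnight, for C1qb (0.15) and Irf1 (0.032) between times in SS and SS-13BN/Mcw, and for Irf1 in the strain by time term (-0.070). Scaling and quantile normalization turned C1s between times in SS (-0.045 and -0.037), and the causes were not tested. With the replicate block (consensus correlation 0.285) the members past the threshold were 1 in SS overnight, 2 in SS-13BN/Mcw overnight, 2 in the mean of 4 groups and 0 elsewhere, so no call changed, and the probes past it in SS at 3 days were 5 in place of 3 and in the mean of 4 groups 174 in place of 234.

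Leaving out 1 pair at a time gave 0 to 1 members in SS overnight, 0 to 3 in SS-13BN/Mcw overnight, 1 to 3 in the mean of 4 groups and 0 in the other comparisons. Single values that changed sign then ran from -0.048 to 0.31 (Irf1, SS at 3 days), -0.18 to 0.056 (Irf1) and -0.18 to 0.065 (C1s) in SS-13BN/Mcw at 3 days, -0.028 to 0.15 (Il6r) and -0.0024 to 0.35 (Irf1) between strains at 3 days, and -0.0055 to 0.17 (Vcam1), -0.26 to 0.0089 (Irf1) and -0.66 to 0.13 (C1s) between strains overnight. Between times in SS they ran from -0.49 to 0.57 (C1s), -0.14 to 0.021 (Il6r), -0.35 to 0.00011 (Irf1) and -0.29 to 0.18 (C1qb).

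Counts over all probes depended more on the setting. In SS at 3 days (3 of 883) they were 9 with scaling, 16 with quantile normalization, 344 turned by dye, 26 at array level, 1 with all 3 pairs required and 0 with that group alone. In SS overnight (13 of 1139) they were 51, 65, 325 and 45 under the same first 4 and 31 with that group alone, and in SS-13BN/Mcw at 3 days (27 of 907) 61, 64, 299 and 61. In SS-13BN/Mcw overnight (116 of 1100) they were 309 turned by dye, 190 at array level and 0 with that group alone, and in the mean of 4 groups (234 of 822) 568 turned by dye. Between strains (0) scaling, quantile normalization and the array-level fit gave 7, 5 and 8 at 3 days, quantile normalization, turning and the array-level fit gave 2, 1 and 1 overnight, and between times in SS-13BN/Mcw the array-level fit gave 2.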
